A study of Mus musculus with 3 samples.

Results

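Ovaries of mice that received adipose-derived stem cells (ADSC) into a vein after chemotherapy were compared with ovaries of mice that had chemotherapy alone. The value of a gene is its log2 ratio to wild-type ovary (WT) on the array of the first group minus the same ratio on the array of the second. All genes with a name on the array and a spot brighter than background in Cy5 or Cy3 on both arrays entered, which were 9168 of 19459 genes. All mice were C57BL/6. The POF group, named for premature ovarian failure, was given cyclophosphamide, an alkylating cytostatic drug. The ADSC-iv group was POF mice with an intravenous injection of cultured ADSC, mesenchymal cells grown from fat tissue. A further group, ADSC-ovary, had the cells placed into both ovaries of POF mice and is given only side by side. Ovaries were taken 1 week after treatment. On each of the 3 arrays, Cy5 marked 1 treated group and Cy3 marked untreated WT mice. The labels do not give the ages of the mice, the number of animals behind an array, the dose of drug or cells, the donor of the cells, or whether WT was 1 RNA pool.

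There was 1 array for each group, always with WT in Cy3. No test between groups was therefore possible and none is given, and precision is limited by how few arrays there were. A dye effect that belongs to a gene is shared by both arrays and cancels in the difference. The POF array enters every value, so values for the 2 routes of injection share it. WT RNA was the only RNA that both arrays carried in Cy3, so its difference between the arrays is given beside the values as the one measure of how far a signal moves without a labelled difference between the groups. Of 14 genes fixed as markers of ovary (12 measured), 11 were above background in all 4 channels, and 2, Amh and Foxl2, were not measured on both arrays. The RNA was from whole ovaries, so fewer cells of a type and less RNA per cell cannot be told apart.

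The ovary holds follicles, each an oocyte enclosed by granulosa cells and, from a later stage, by a theca layer. The growing oocyte lays down the zona pellucida and stores transcripts that the early embryo uses before its own genome is active. Theca and luteal cells make steroid hormones from cholesterol, which they take up or build from acetyl units through the mevalonate and sterol pathways. Cyclophosphamide damages growing follicles and their granulosa cells, and is used in mice to model ovarian failure.

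Over the 9168 genes the difference between the ADSC-iv and POF arrays had a median of -0.0039 and an SD of 0.34 log2 units. The 5th percentile was -0.51, the 95th was 0.55, and 49.4% of genes were above 0. At least 2-fold higher in ADSC-iv were 47 genes (0.513% of those measured), and at least 2-fold lower were 32 (0.349%). The treated (Cy5) signal differed between the arrays with an SD of 0.38 and the WT (Cy3) signal with an SD of 0.25. The WT signal alone was at least 2-fold higher on the ADSC-iv array in 26 genes (0.284%) and lower in 9 (0.0982%). Differences of 2-fold in a single channel were thus met in WT RNA as well, at lower shares. With each array centred on its median in place of loess, the median of all genes was -0.11 and the counts were 37 higher and 67 lower, and in the authors' own normalized values they were 239 and 341, so the split between higher and lower depends on the scaling.

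The WT side was read for each of these genes. A gene was said to lie on the WT side when its WT signal moved the opposite way by at least 0.5 times the difference of ratios. Of all 9168 measured genes 3142 did so, and WT-side counts of the lists below are to be read beside that share. The limit grows with the difference, so genes picked at 2-fold are not compared with it. Of the 47 higher genes 0 did so. The difference of ratios is the Cy5 difference minus the WT difference, so a gene not on the WT side is bound to have its sign in Cy5. All 47 were therefore higher in Cy5 alone, and 32 were at least 2-fold higher there. Of the 32 lower genes 31 were lower in Cy5 alone and 24 at least 2-fold. The exception was Tefm, a mitochondrial transcription elongation factor, at 0.17 against WT on the POF array and -1.07 on the ADSC-iv array. Its WT signal was higher by 1.45 on the ADSC-iv array while its Cy5 signal differed by only 0.20.

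**Figure D1:**
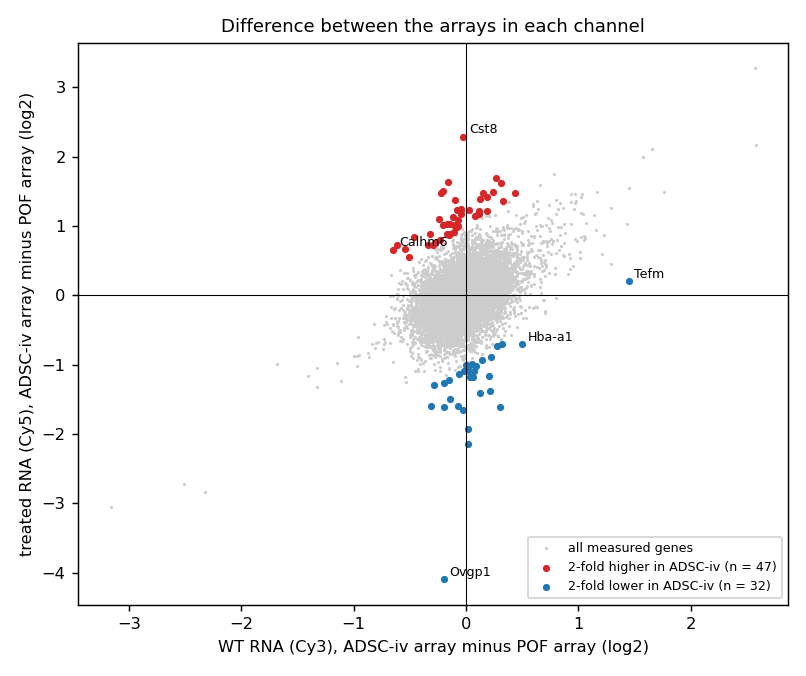
Difference between the ADSC-iv and POF arrays of the treated RNA (Cy5, vertical axis) and of the WT RNA (Cy3, horizontal axis), both as normalized log2 signal, for 9168 genes. Genes at least 2-fold higher in ADSC-iv by the difference of ratios (47) and lower (32) are coloured. In each of them the Cy5 difference was larger in size than the WT difference, except in Tefm, whose WT signal differed by 1.45. Genes not on the WT side are bound to show this, so it is no separate check.

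Distance from WT was read next. Among the 47 higher genes 8 were closer to WT on the ADSC-iv array than on the POF array and 39 were farther from it. Among the 32 lower genes 14 were closer and 18 farther. Both sets were picked by the same difference between the arrays, and ratios on the POF array had a median of 0.0073 over all measured genes. A gene picked as 2-fold higher is then farther from WT unless it was low on the POF array. The selection thus largely sets the split among the higher genes. The share over all measured genes is not given here, so the split is a description only. Oocyte genes were near WT on the POF array and high on the ADSC-iv array by their median, while Saa3, Efemp1 and the Ccl21 genes were low on the POF array and near WT on the ADSC-iv array. Saa3, Efemp1 and the Ccl21 genes were also nearer WT on the ADSC-ovary array than on the POF array.

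**Figure D2:**
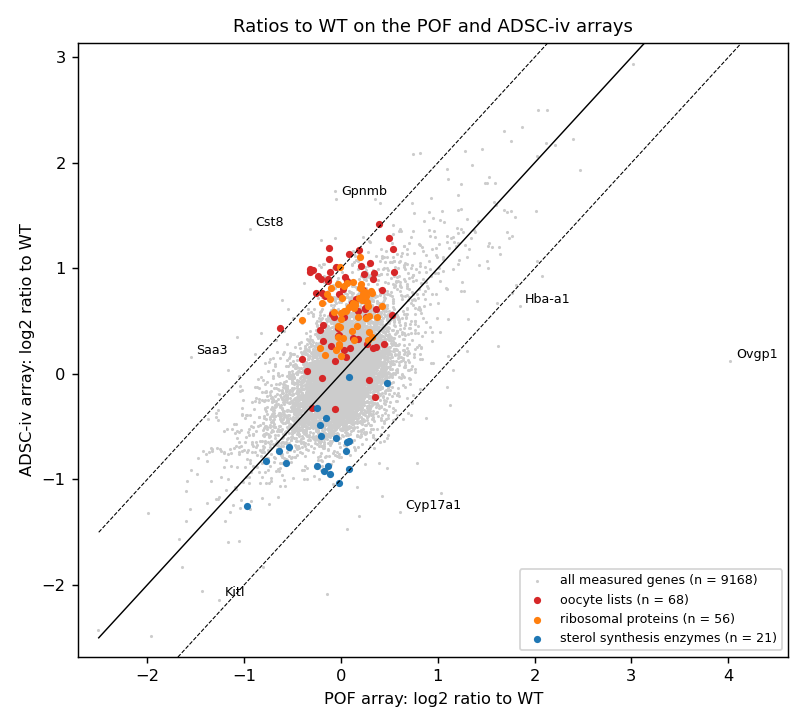
Log2 ratio to WT on the POF array (horizontal axis) and on the ADSC-iv array (vertical axis) for 9168 measured genes, with 68 oocyte genes, 56 ribosomal protein genes and 21 sterol synthesis enzymes coloured. The solid line marks equal ratios and the dashed lines a 2-fold difference. Oocyte and ribosomal protein genes lie mostly above the line, and all 21 sterol enzymes lie below it.

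Oocyte genes stood above their POF level in ADSC-iv ovaries. Across 6 lists of oocyte genes, joined after their values were seen, 68 of 102 genes on the array were measured, 61 were above 0, and the median was 0.57. At least 2-fold higher were 15, or 22.1% of them, and 0 were 2-fold lower. The 15 are part of the 47 higher genes of the whole array. Over the 68 genes the median ratio to WT was 0.03 in POF, 0.62 in ADSC-iv and 0.11 in ADSC-ovary ovaries. In Cy5 the median difference was 0.50 and in WT -0.06, and 13 of the 68 lay on the WT side. Over the 56 members above background in all 4 channels the median was 0.59, with 50 above 0.

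Promoters of 4 of these genes are shown because their members moved together and the E-box CANNTG, the site that the oocyte factor FIGLA binds with a partner in mouse, was searched in them on both strands. The E-box was in 85.2% of 27 promoters of the list of other oocyte genes (23), in 73.3% of 15 maternal-effect promoters (11), and in 72.1% of 27025 promoters of all genes. The homeobox element TAATTG was in 3.70% (1), 20.0% (3) and 8.15% respectively. Capitals mark both motifs, whose matches shown here do not overlap. The promoters shown were chosen after the matches were seen. The sequences, of 300 bases each, span the RefSeq start in GRCm38.p6: Figla at chr6:86016941-86017240 (plus strand), Zp3 at chr5:135979855-135980154 (plus), Ooep at chr9:78378539-78378838 (minus) and Zar1l at chr5:150518110-150518409 (minus).
Figla: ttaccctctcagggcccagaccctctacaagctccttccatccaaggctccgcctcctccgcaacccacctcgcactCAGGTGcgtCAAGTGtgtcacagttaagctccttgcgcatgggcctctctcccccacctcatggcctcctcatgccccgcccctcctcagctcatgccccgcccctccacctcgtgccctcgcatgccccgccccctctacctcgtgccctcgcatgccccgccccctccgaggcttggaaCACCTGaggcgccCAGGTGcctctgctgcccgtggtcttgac
Zp3: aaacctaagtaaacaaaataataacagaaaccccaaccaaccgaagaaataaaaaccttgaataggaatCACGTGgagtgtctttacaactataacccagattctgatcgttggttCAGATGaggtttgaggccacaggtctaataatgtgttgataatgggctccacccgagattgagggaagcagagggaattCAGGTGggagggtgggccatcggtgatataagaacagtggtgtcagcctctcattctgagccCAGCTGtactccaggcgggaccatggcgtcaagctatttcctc
Ooep: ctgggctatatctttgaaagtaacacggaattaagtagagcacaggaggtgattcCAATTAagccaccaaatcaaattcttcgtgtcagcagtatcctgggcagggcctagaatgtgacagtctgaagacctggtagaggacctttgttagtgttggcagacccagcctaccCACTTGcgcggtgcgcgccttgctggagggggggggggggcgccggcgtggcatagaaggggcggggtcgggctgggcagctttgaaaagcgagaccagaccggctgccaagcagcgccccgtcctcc
Zar1l: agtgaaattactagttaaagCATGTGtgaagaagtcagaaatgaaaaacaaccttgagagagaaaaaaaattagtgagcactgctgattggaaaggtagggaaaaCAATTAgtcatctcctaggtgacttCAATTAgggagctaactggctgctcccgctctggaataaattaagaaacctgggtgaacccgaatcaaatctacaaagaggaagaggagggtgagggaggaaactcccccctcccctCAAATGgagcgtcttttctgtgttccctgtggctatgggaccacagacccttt
Figla and Zp3 held 4 E-boxes each, Ooep held 1 E-box and 1 homeobox element, and Zar1l held 2 of each. A match describes the letters only.

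The zona pellucida is the glycoprotein coat of the egg. Zp1 was at -0.18 against WT in POF, 0.46 in ADSC-iv and -0.23 in ADSC-ovary ovaries. Zp2 was at -0.10, 0.57 and -0.24 in the same order, and Zp3 at 0.03, 0.54 and -0.13. All 3 genes were thus highest on the ADSC-iv array, with differences from POF of 0.64, 0.66 and 0.51. Part of this lay in the WT signal, which was lower on the ADSC-iv array, with WT differences of -0.21, -0.29 and -0.31. In Cy5 alone the genes differed by 0.44, 0.37 and 0.20, and Zp3 counted as lying on the WT side.

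Among factors that the oocyte signals with, Gdf9, a TGF-beta family ligand that drives granulosa growth, was at -0.14 in POF, 0.90 in ADSC-iv and 0.10 in ADSC-ovary ovaries. Its difference of 1.04 had a WT difference of 0.33 in the same direction, so the Cy5 difference was larger, at 1.36. Kit, the receptor for the granulosa ligand Kitl, differed by 0.28, with 0.26 on the POF array and 0.54 on the ADSC-iv array. Of the other members measured, Ptn differed by -0.11 and Fgf8, not above background in WT on the POF array, by -0.16. Kitl itself was far below WT on both arrays: at -1.26 on the POF array and -2.14 on the ADSC-iv array, where its Cy5 signal was not above background. In Cy5 alone it was 1.88-fold lower there than on the POF array, by a dim signal, and the difference of ratios was -0.88.

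Of 12 oocyte transcription factors on the array 6 were measured. Figla, which switches on the zona genes in mouse, was at -0.63 against WT on the POF array, where its Cy5 signal was not above background, and at 0.43 on the ADSC-iv array. In Cy5 alone it was 2.21-fold higher there, against a dim signal, with a WT difference of 0.08, and the difference of ratios was 1.06. The homeobox genes Obox5 (0.37), Obox2 (0.25) and Obox3 (-0.08) and the LIM factor Lhx8 (0.20, not above background in WT on the POF array) stood closer to 0, as did Taf4b (0.01). Of the 6, 5 were above 0.

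Genes stored in the egg for the embryo were mostly higher. Of 19 measured on the maternal-effect list 16 were above 0, 3 were 2-fold higher, and the median was 0.50. Ooep, part of the subcortical maternal complex, was at -0.32 against WT in POF, 0.995 in ADSC-iv and 0.15 in ADSC-ovary ovaries. Its difference of 1.32 was nearly all in Cy5 (1.23), with WT at -0.08. The partners of Ooep in that complex were less apart: Nlrp5 differed by 0.54 (Cy5 0.24, WT -0.30), and Tle6 by 0.10, with -0.03 in Cy5 alone. The complex was therefore not uniform.

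Zar1l, an oocyte RNA-binding protein, went from -0.05 on the POF array to 1.01 on the ADSC-iv array, and its relative Zar1 from -0.02 to 0.75. Dppa3, which protects the maternal genome from demethylation in the mouse zygote, went from -0.14 to 0.88, a difference of 1.02. Npm2, a histone chaperone of the egg, differed by 0.87 and the arginine deiminase Padi6 by 0.70, but with WT differences of -0.47 and -0.39 both counted as lying on the WT side. Btg4, which directs the clearing of maternal transcripts, differed by 0.56, the maintenance methyltransferase Dnmt1 by 0.57 and its partner Uhrf1 by 0.50. Uhrf1 also lay on the WT side, with 0.20 in Cy5 and WT at -0.30. The members below 0 were genes that other tissues express as well: Basp1 (-0.35), Trim28 (-0.27) and Ctcf (-0.03). Ezh2 (0.37), Hsf1 (0.38), Dnmt3a (0.18), Ube2a (0.16) and Zfp36l2 (0.15), which are also not particular to oocytes, were above 0.

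The NLRP genes of the oocyte form a family of close copies, and a spot may bind more than one of them. All 6 measured of 12 were above 0, with a median of 0.68, and 3 of the 6 were above background in all 4 channels. Nlrp14 was at -0.29 in POF, 0.98 in ADSC-iv and -0.15 in ADSC-ovary ovaries. Nlrp4a was at 0.08, 1.14 and 0.54 and so was above WT on both arrays with cells. Their differences of 1.27 and 1.05 had WT differences of -0.04 and 0.12. Nlrp4e (0.82), Nlrp4f (0.39) and Nlrp9a (0.37) were not above background in WT.

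The widest group was a list of 45 other oocyte genes, of which 32 were measured, 31 were above 0 and 8 were 2-fold higher. Its median was 0.64, with 0.68 in Cy5 and -0.09 in WT. The F-box genes Fbxw21 and Fbxw15, from a cluster of close copies, were at -0.32 and -0.12 on the POF array and at 0.97 and 1.19 on the ADSC-iv array. Fbxw21 differed by 1.28 with WT at -0.04. Fbxw15 differed by 1.31 with WT at -0.46, so its Cy5 difference was smaller, at 0.85. As close copies, the Fbxw, Oas1 and Tcl1b genes may share signal between their spots.

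Oas1d, an oligoadenylate synthetase-like protein of the oocyte, went from -0.24 to 0.93, and the secreted proteins Oosp2 and Oosp1 from -0.21 to 0.90 and from 0.30 to 1.05. Astl, the egg protease that cleaves the zona after fertilization, was not above background in Cy5 on the POF array. Against that dim signal it was 2.01-fold higher in Cy5 on the ADSC-iv array (difference of ratios 1.07). Its spot on the ADSC-iv array did not carry the quality flag of 100. H1f8, the linker histone of the oocyte, differed by 1.03 (Cy5 0.73, WT -0.30), and Uchl1, a deubiquitinase of oocytes and neurons, by 0.90 with an SD of 0.57 over its probes. Ftdc2 differed by 1.22, Oosp3 by 1.02 and Fbxw13 by 0.98. The single member below 0 was the tetraspanin Cd9 (-0.57), which many cell types carry on their surface. On the ADSC-ovary array Fbxw21 was at 0.06, Oas1d at 0.12, Oosp2 at -0.02 and Astl at -0.27, all far from their ADSC-iv values.

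**Figure D3:**
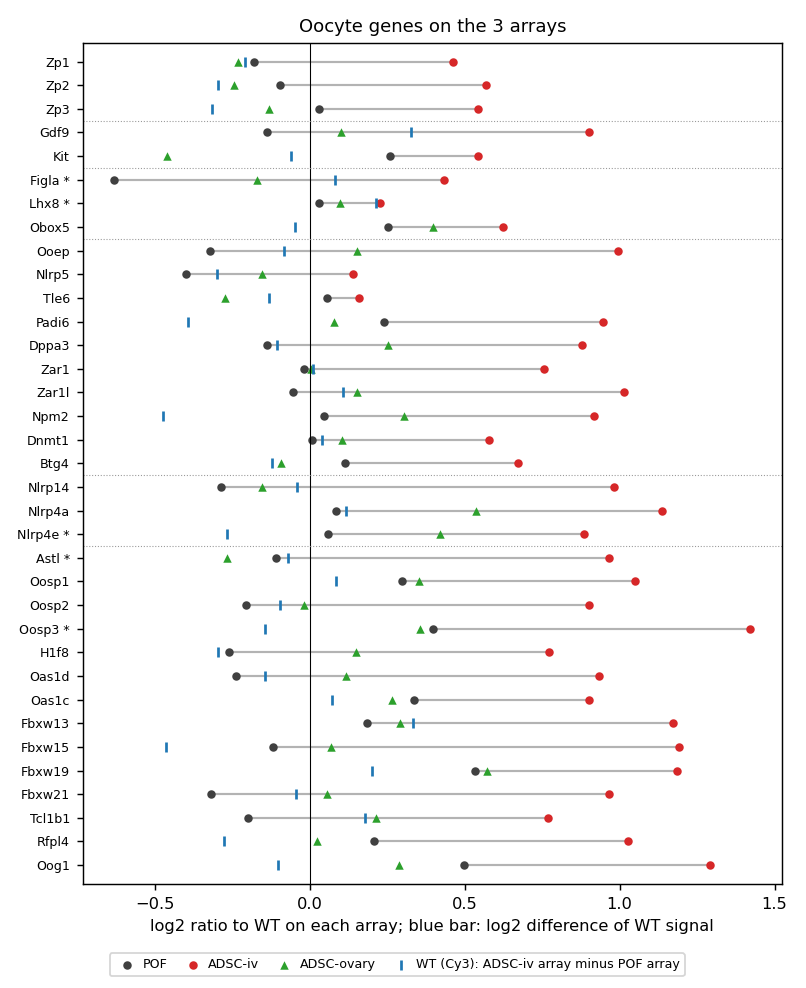
Log2 ratio to WT of 35 oocyte genes on the POF, ADSC-iv and ADSC-ovary arrays (1 array per group), with the WT difference between the ADSC-iv and POF arrays as a blue bar; an asterisk marks genes not above background in all 4 channels. From top to bottom stand the zona, signalling, transcription factor, maternal-effect, NLRP and other oocyte genes. The ADSC-iv point is the right-most of the 3 arrays in each gene drawn, but the 35 are only part of the 68 measured. Among those not drawn, Nlrp4f, Zfp36l2, Ptn, Basp1, Cd9 and others were higher on another array.

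Genes of meiosis and 3 cystatins were read beside the oocyte lists. Of 8 measured meiosis genes 6 were above 0 with a median of 0.64, but the Cy5 median was 0.33 and 3 lay on the WT side. Mael, a piRNA pathway protein, went from -0.57 on the POF array to 0.07 on the ADSC-iv array, and Psmc3ip, a recombination factor, from -1.54 to -0.91. Mlh3 (-0.06), a mismatch repair protein of many tissues, differed by less than the SD of the WT signal. The highest difference of all genes was that of Cst8, a cystatin of the reproductive tract, at -0.94 in POF, 1.37 in ADSC-iv and 0.62 in ADSC-ovary ovaries. Its difference of 2.31 had a WT difference of -0.02. Cst12, a related cystatin, went from -0.49 to 0.53, while Cstb differed by 0.10 and by -0.21 in Cy5 alone, on the WT side.

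Granulosa genes had no common direction. Of 27 measured, 12 were above 0 and 15 below, with a median of -0.03 and 0 at 2-fold. Inhba and Fst, which encode the activin subunit and its antagonist, were below WT on both arrays: Inhba at -0.75 on the POF array and -0.91 on the ADSC-iv array, Fst at -0.87 and -0.88. Fshr, the receptor for follicle-stimulating hormone, was at 0.0021 and 0.15, and aromatase Cyp19a1 at -0.25 and -0.28. Besides Kitl, farthest apart were Slc18a2 (0.69), Nr0b1 (0.56, on the WT side), Serpine2 (-0.60) and Hsd17b1 (-0.59). The 12 ovulation genes lay at a median of -0.17, lowest in the EGF family ligand Ereg, at 0.64 in POF, -0.43 in ADSC-iv and 0.36 in ADSC-ovary ovaries. Ereg was 2-fold lower in ADSC-iv, with a difference of -1.07 and -1.27 in Cy5 alone.

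Sterol synthesis enzymes were lower in ADSC-iv ovaries at each step measured. Of 21 enzymes 0 were above 0, the median was -0.55, and 1, Sqle, reached 2-fold. The median ratio to WT was -0.16 in POF, -0.73 in ADSC-iv and -0.19 in ADSC-ovary ovaries. In Cy5 alone the median was -0.39 with 19 of 21 below 0, the WT median was 0.18, and 6 of 21 lay on the WT side. Sterol enzymes were thus near their POF level after injection into the ovary and lowest after injection into a vein, with part of the gap carried by WT.

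In pathway order, Hmgcs1, an early enzyme on the way to mevalonate, was at -0.57 against WT on the POF array and at -0.84 on the ADSC-iv array. Hmgcs1 lay on the WT side, with -0.09 in Cy5 and WT at 0.18. Mvk, mevalonate kinase, went from -0.11 to -0.95, a difference of -0.84 with WT at 0.04. The next steps were closer to 0: Pmvk differed by -0.07, Mvd by -0.15, Idi1 by -0.26 and Fdps by -0.10. Mvd and Fdps were above 0 in Cy5 alone, at 0.04 and 0.59, and the WT signal of Fdps was higher by 0.69 on the ADSC-iv array. Ggps1, which leads off to protein prenylation, differed by -0.11, on the WT side.

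The steps that commit to squalene and sterol were farther apart. Fdft1, squalene synthase, went from -0.17 to -0.92. Sqle, squalene epoxidase, went from -0.02 on the POF array to -1.04 on the ADSC-iv array and was at -0.19 on the ADSC-ovary array. Its difference of -1.01 was -0.74 in Cy5 and 0.27 in WT. Lss, which closes the rings, differed by -0.39, all of it in Cy5. Among the enzymes that trim lanosterol to cholesterol, Cyp51 went from 0.05 to -0.73, Tm7sf2 from 0.09 to -0.90, Nsdhl from -0.14 to -0.87 and Msmo1 from 0.07 to -0.64, the last on the WT side.

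The last steps were mixed in size. Sc5d differed by -0.62 with WT at 0.13 and Ebp by -0.56 with WT at 0.18. Dhcr7 was low on both arrays, at -0.77 and -0.82. Hsd17b7 was lowest of all on both, at -0.97 and -1.25, and Erg28, a scaffold of the pathway, differed by -0.26.

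**Figure D4:**
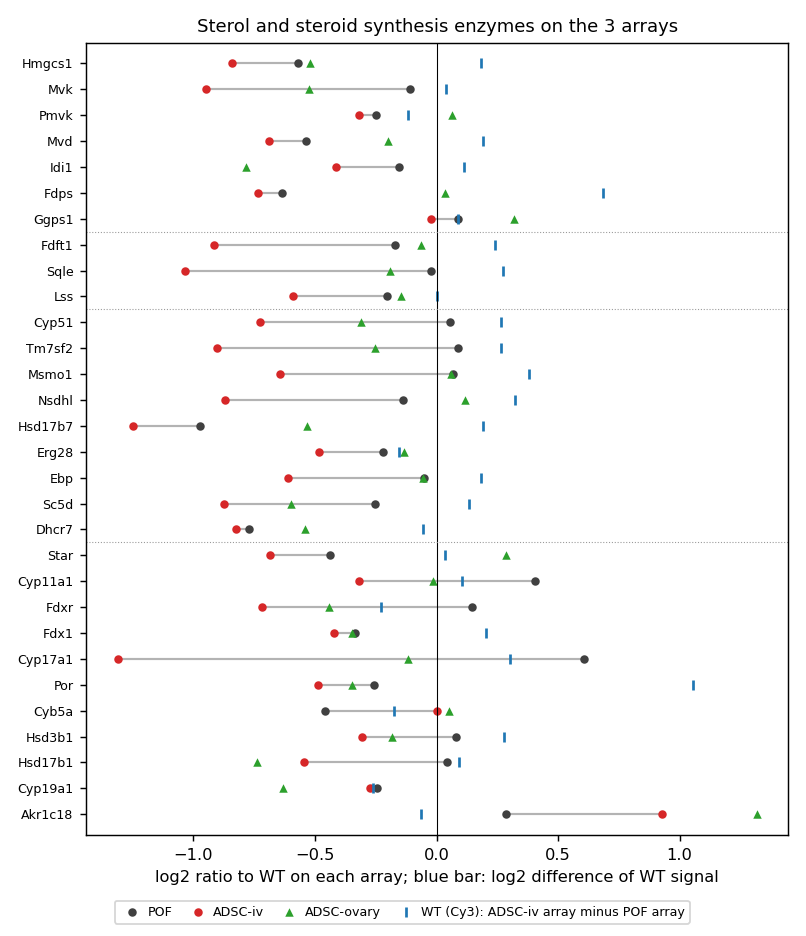
Log2 ratio to WT of 19 sterol synthesis enzymes in pathway order and of 11 proteins of steroid synthesis on the POF, ADSC-iv and ADSC-ovary arrays (1 array per group), with the WT difference between the ADSC-iv and POF arrays as a blue bar. Dotted lines part mevalonate, squalene, late sterol and steroid steps. The ADSC-iv point lies left of the POF point in all 19 sterol enzymes drawn, and the widest gap is that of Cyp17a1.

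Promoters of 3 sterol enzymes are shown for the sites of SREBP factors, which switch these genes on when cell sterol is low, and of the NF-Y complex. The sterol element TCACNCCAC was in 1 of 16 promoters (6.25%), that of Hmgcs1, against 1.22% of all 27025, and the box CCAAT was in 14 of 16 (87.5%) against 37.9%. Both strands were read, capitals mark both motifs, and the matches shown do not overlap. These promoters, too, were chosen after the matches were seen. Mvk lies at chr5:114444019-114444318 (plus strand), Hmgcs1 at chr13:119690101-119690400 (plus) and Tm7sf2 at chr19:6067801-6068100 (minus) in GRCm38.p6.
Mvk: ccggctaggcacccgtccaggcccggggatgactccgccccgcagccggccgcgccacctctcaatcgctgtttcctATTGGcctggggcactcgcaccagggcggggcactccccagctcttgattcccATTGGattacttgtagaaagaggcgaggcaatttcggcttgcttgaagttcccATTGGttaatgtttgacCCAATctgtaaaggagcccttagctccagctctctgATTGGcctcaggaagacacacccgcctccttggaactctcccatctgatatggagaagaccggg
Hmgcs1: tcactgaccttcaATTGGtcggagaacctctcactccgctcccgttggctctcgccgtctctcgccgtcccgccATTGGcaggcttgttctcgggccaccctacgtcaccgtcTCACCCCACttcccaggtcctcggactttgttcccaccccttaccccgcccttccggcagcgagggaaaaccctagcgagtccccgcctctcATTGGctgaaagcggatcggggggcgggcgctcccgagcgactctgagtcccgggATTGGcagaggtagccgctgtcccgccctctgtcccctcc
Tm7sf2: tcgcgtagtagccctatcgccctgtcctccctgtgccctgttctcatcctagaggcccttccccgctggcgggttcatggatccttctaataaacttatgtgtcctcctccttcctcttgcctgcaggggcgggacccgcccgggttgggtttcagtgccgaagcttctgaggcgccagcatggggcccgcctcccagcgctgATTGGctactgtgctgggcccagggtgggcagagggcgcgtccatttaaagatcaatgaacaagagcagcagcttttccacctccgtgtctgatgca
Mvk held 5 CCAAT boxes, Hmgcs1 1 sterol element and 4 CCAAT boxes, and Tm7sf2 1 CCAAT box. Their differences were -0.84, -0.27 and -0.99, so the promoter with the sterol element did not belong to the gene farthest apart.

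Genes that sense, take up and move sterol did not follow the enzymes as a list, with 11 of 24 above 0 and a median of -0.08. The high-density lipoprotein receptor Scarb1 (-0.50) and the sterol carrier Stard4 (-0.59) were lower. Srebf2, the SREBP factor of sterol genes, was at -0.17 and 0.12, and its difference of 0.29 was -0.02 in Cy5 alone. The lysosomal lipase Lipa was the highest at 0.62, from -1.36 on the POF array to -0.74 on the ADSC-iv array, on the WT side. The sensor Insig1, itself an SREBP target, differed by -0.26.

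Fatty acid synthesis was lower along with sterol synthesis. Of 25 genes 4 were above 0 and the median was -0.35. The desaturases Fads2 and Fads1, which make polyunsaturated fatty acids, went from 0.25 on the POF array to -0.86 and -0.61 on the ADSC-iv array, and Fads2 was 2-fold lower, at -1.11. Elovl1 (-0.79), malic enzyme Me1 (-0.77), Scd1 (-0.56) and Scd2 (-0.54) followed, while the first enzymes Acaca (-0.31) and Fasn (-0.38) were closer to 0. Elovl5 (-0.80) lay on the WT side. The 24 genes that burn or store fat lay at a median of -0.17, with the fatty acid carrier Fabp4, at -0.24 on the POF array and 0.72 on the ADSC-iv array, at 0.96. The regulator Pparg had a difference of -0.76 with an SD of 0.86 over its 2 probes, and its direction turned in the authors' values (3.38), so no direction is given for it.

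Steroid synthesis differed most at 1 enzyme. Cyp17a1, the theca enzyme that turns progestins into androgens, was at 0.61 against WT in POF, -1.31 in ADSC-iv and -0.12 in ADSC-ovary ovaries. Its difference of -1.91 was -1.61 in Cy5 with WT at 0.30. The POF ovaries were thus above WT in this gene and the ADSC-iv ovaries below it. The step before it, side-chain cleavage by Cyp11a1, went from 0.41 to -0.32, and Fdxr, which feeds electrons to that step, from 0.15 to -0.72. The cholesterol carrier Star differed by -0.25 and ferredoxin Fdx1 by -0.09. Por, the electron donor of Cyp17a1, differed by -0.23, but its WT signal was higher by 1.05 and its Cy5 signal by 0.82.

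Of 18 steroid enzymes 3 were above 0, and the median was -0.26. Above 0 were the progestin-clearing enzyme Akr1c18 (0.64), Akr1c14 (0.62) and Cyb5a (0.46). Akr1b7, a reductase of steroid-making tissue in mice, was at 2.02 in POF, 1.07 in ADSC-iv and 1.61 in ADSC-ovary ovaries. Its promoter is shown because, of 12 measured enzymes with a promoter, only it held the element AAGGTCA that SF-1 (Nr5a1) binds (8.33%, against 4.66% of all promoters). The motif is in capitals, here on the opposite strand, at chr6:34412112-34412411 (plus strand, GRCm38.p6).
Akr1b7: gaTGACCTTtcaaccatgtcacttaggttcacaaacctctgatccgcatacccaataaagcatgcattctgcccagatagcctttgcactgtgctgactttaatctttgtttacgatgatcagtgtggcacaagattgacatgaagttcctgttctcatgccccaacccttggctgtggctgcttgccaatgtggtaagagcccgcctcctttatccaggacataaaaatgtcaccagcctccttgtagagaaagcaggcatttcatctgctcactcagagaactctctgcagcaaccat
Nr5a1 itself differed by -0.06. Other theca markers were lower, with a median of -0.33 and 6 of 18 above 0: the alcohol dehydrogenase Adh1 went from 0.39 to -0.85 and the hormone Insl3 from 0.68 to 0.24, the latter on the WT side. The median ratio of these markers to WT was -0.15 in POF, -0.44 in ADSC-iv and -0.40 in ADSC-ovary ovaries. The hedgehog target Gli1 was not above background in WT on the ADSC-iv array, and its difference of 0.96, on the WT side, was only 0.30 in Cy5. For luteal genes the median was -0.27 and 3 of 15 were above 0, from Cyp11a1 (-0.72) to Cited1, which went from -1.29 on the POF array to -0.41.

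Ribosomal protein genes were higher in ADSC-iv ovaries without exception among those measured. All 56 of 58 on the array that were measured were above 0, with a median of 0.48, from Rps15a (0.04) and Rps2 (0.05) to Rpl23a (1.02), the only one at 2-fold. Rpl23a was at -0.01 in POF, 1.01 in ADSC-iv and 0.69 in ADSC-ovary ovaries. Rpl34 was at 0.19, 1.11 and 0.74, and Rplp1, a stalk protein, at -0.40, 0.51 and -0.00050. The median of the list was 0.13 against WT in POF, 0.64 in ADSC-iv and 0.27 in ADSC-ovary ovaries. In Cy5 alone 50 of 56 were above 0 with a median of 0.38, the WT median was -0.15, and 18 lay on the WT side.

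Control spots, which are separate from the gene probes, were read as well. The 48 Rpl5 control spots differed by 0.51 ± 0.17 (SD over spots of the 2 arrays). The 48 actin spots differed by -0.0028 ± 0.18, the Ldha spots by -0.10 ± 0.15 and the Gapdh spots, named GAPD on the array, by -0.30 ± 0.15. These SDs are between spots of the same RNA and cover no difference between animals. The gene probes of Rpl5 differed by 0.55, of Ldha by -0.53 and of Gapdh by -0.11, so probe and control spots were close for Rpl5 and apart for Ldha. Gas5, a host gene of small nucleolar RNAs, differed by 0.98, and the pseudogenes Rpl37-ps1 (0.997) and Rps12-ps2 (0.93), whose spots may bind their parent transcripts, stood with the family. Protein-coding genes sorted by their span in the genome into 5 equal groups had medians from -0.02 to 0.04, with the group of shortest genes at 0.04. Transcript length was not used here.

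Respiratory chain subunits differed both ways. Of 66 measured, 48 were above 0 and the median was 0.24, with a Cy5 median of 0.15. On the WT side lay 27 of the 66, beside 3142 of all 9168 genes. The highest were Cox7c, which went from 0.17 to 0.997, Ndufa2, from -0.20 to 0.61, and Ndufa5, from -0.22 to 0.59. The lowest were Sdha of complex II, which went from 0.43 to -0.12 (-0.55), Uqcrc1 of complex III (-0.53) and Ndufv1 of complex I (-0.49). Proteasome subunits, another large complex, were at a median of -0.10, and 12 of 29 were above 0, and Psmd12 was lowest at -0.74.

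Lysosome genes were lower in ADSC-iv ovaries. Of 47 measured 11 were above 0, the median was -0.34, with -0.24 in Cy5 and 0.03 in WT, and 9 lay on the WT side. The list's median ratio to WT was 0.11 in POF, -0.26 in ADSC-iv and -0.21 in ADSC-ovary ovaries. By that median the lower level was met with cells by either route. Ctsk, the cathepsin that degrades collagen, was at 0.19 in POF, -1.35 in ADSC-iv and -0.16 in ADSC-ovary ovaries. Pld3 went from 0.36 to -0.61 and Ctsf from 0.34 to -0.60. On the ADSC-ovary array these 2 were at -0.39 and -0.63. Progranulin Grn (-0.80), protective protein Ctsa (-0.82), legumain Lgmn (-0.74) and the proton pump subunits Atp6ap1 (-0.81) and Atp6v1b2 (-0.80) were lower as well. Above 0 were Lipa (0.62) and the macrophage cathepsin Ctss (0.50), both on the WT side, and Cd63 (0.29).

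Genes of lipid-laden phagocytes differed both ways. Of 28 measured 20 were above 0 with a median of 0.20. Gpnmb, a glycoprotein of phagocytes and melanocytes, was at -0.05 in POF, 1.66 in ADSC-iv and 0.33 in ADSC-ovary ovaries, a difference of 1.71 with WT at -0.21. The proton pump subunit Atp6v0d2, abundant in osteoclasts and macrophages, was at -0.54, 0.62 and -0.02 and was 2-fold higher in ADSC-iv. Ctsk, Pld3 and Cd9 of the same list were lower. Trem2, the lipid receptor of these cells, was at 0.50 on the POF array and 0.51 on the ADSC-iv array, and Spp1 differed by -0.24.

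Macrophage genes were above WT on both arrays and somewhat higher in ADSC-iv. Of 33 measured 27 were above 0 with a median of 0.21, but the WT median was -0.15. On the WT side lay 13 of the 33, beside 3142 of all 9168 genes. The list's median ratio to WT was 0.60 in POF, 0.93 in ADSC-iv and 1.42 in ADSC-ovary ovaries. The lysozymes Lyz2 (0.41 in POF, 1.62 in ADSC-iv, 1.49 in ADSC-ovary ovaries) and Lyz1 (0.75, 2.08 and 1.60) were 2-fold higher, and the WT signal of Lyz1 was at -0.61. As close copies, these 2 cannot be told apart on their spots. The surface markers Adgre1 (0.79) and Ms4a7 (0.87) were higher in Cy5 too, at 0.59 and 0.87, while Csf1r (-0.04) and Cd68 (-0.01) were level. Ccl8, a chemokine that draws monocytes and T cells, was at 0.82, 2.09 and 3.37, and so was higher with cells by either route. Cxcr4, the receptor of Cxcl12, was lower, at 0.68 on the POF array and -0.23 on the ADSC-iv array.

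Other immune lists differed by medians from -0.19 (B and plasma cell genes, 5 measured) to 0.30 (T and NK cell genes). The median was 0.19 for chemokines and cytokines (17 of 23 above 0), 0.18 for complement genes (11 of 14) and 0.16 for S100 genes (8 of 10). It was -0.13 for MHC class I genes (3 of 17 above 0, 11 on the WT side), -0.11 for MHC class II genes and 0.13 for interferon-stimulated genes, which was -0.0071 after median centring. Of 33 T and NK cell genes on the array 9 were measured, and 4 of the 9 were above background in all 4 channels. Neutrophil genes had a median of -0.10 over 8, of which 0 were above background in all channels, with lactoferrin Ltf at 1.77 on the POF array and 0.77 on the ADSC-iv array. S100a4, a calcium-binding protein of mesenchymal and immune cells, was at -0.17, 1.04 and 1.25 on the POF, ADSC-iv and ADSC-ovary arrays.

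A few genes were low after chemotherapy alone and closer to WT with cells by either route, against the same POF array. Saa3, an acute-phase protein, was at -1.55 in POF, 0.16 in ADSC-iv and 0.54 in ADSC-ovary ovaries. Ccl21b and Ccl21c, near-identical chemokines of lymphatic vessels, were at -1.17 and -1.26 on the POF array and at 0.03 and -0.19 on the ADSC-iv array. In Cy5 alone Ccl21b differed by 1.23, but Ccl21c only by 0.55, with WT at -0.51. The matrix protein Efemp1 went from -0.89 to 0.19, and Cnmd, an inhibitor of vessel growth, from -1.37 to -0.42. Mmrn1, a protein of lymphatic endothelium and platelets, went from -1.33 to -0.73. On the ADSC-ovary array Ccl21b was at -0.15, Ccl21c at -0.42, Efemp1 at 0.48, Cnmd at -0.42 and Mmrn1 at -0.44. Angpt1, the Tek ligand, was not above background in Cy5 on the POF array. Against that dim signal it was 1.85-fold higher in Cy5 on the ADSC-iv array (difference of ratios 0.92). Its ratio to WT was -1.29 in POF, -0.37 in ADSC-iv and -0.57 in ADSC-ovary ovaries. Endothelial genes as a list had 14 above 0 and 14 below.

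Markers of tissue other than follicles moved with the same arrays. Ovgp1, the oviduct glycoprotein, had a ratio of 4.02 in POF, 0.12 in ADSC-iv and 0.20 in ADSC-ovary ovaries, with WT not above background on either of the compared arrays. Its difference of -3.90 was the largest of all genes. Of 16 oviduct and cilia genes measured of 34 on the array 3 were above 0, the median was -0.21, and the list's median ratio to WT was 0.56 on the POF array and 0.36 on the ADSC-iv array. Dynlrb2 went from 1.41 to 0.69 and Epcam from 0.81 to 0.27, while the keratins Krt8 (0.08) and Krt18 (-0.11) were level. The part of oviduct tissue in any difference between the arrays was not tested.

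Of 26 erythroid genes 11 were measured, with a median of -0.55, 2 above 0 and 3 at least 2-fold lower. Alas2, the first enzyme of heme synthesis in red cells, went from 1.62 to 0.26 and was dim in WT on the POF array. Hba-a1 went from 1.85 to 0.64 with a WT difference of 0.50. Hbb-b1 differed by -0.96, of which only -0.26 was in Cy5 and 0.70 in WT, so the globin signal of the WT RNA also differed between the arrays. Its part in other results was not tested.

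For smooth muscle genes the median was -0.32, 4 of 20 were above 0, and the WT median was -0.02. Desmin Des was at 0.88 in POF, -0.42 in ADSC-iv and 1.01 in ADSC-ovary ovaries, and differed by -1.60 in Cy5 alone. Myh11 (-0.59), Kcnmb1 (-0.59) and Actg2 (-0.55) were lower, and Des, Myh11, Kcnmb1 and Actg2 were all above WT on the ADSC-ovary array. For matrix genes the median was -0.19 and 12 of 45 were above 0. Fibronectin Fn1 went from 0.33 to -0.52, and the collagen genes Col1a1 (-0.64), Col1a2 (-0.44) and Col5a1 (-0.46) were lower, while decorin Dcn (0.52) and Efemp1 (1.07) were higher.

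**Figure D5:**
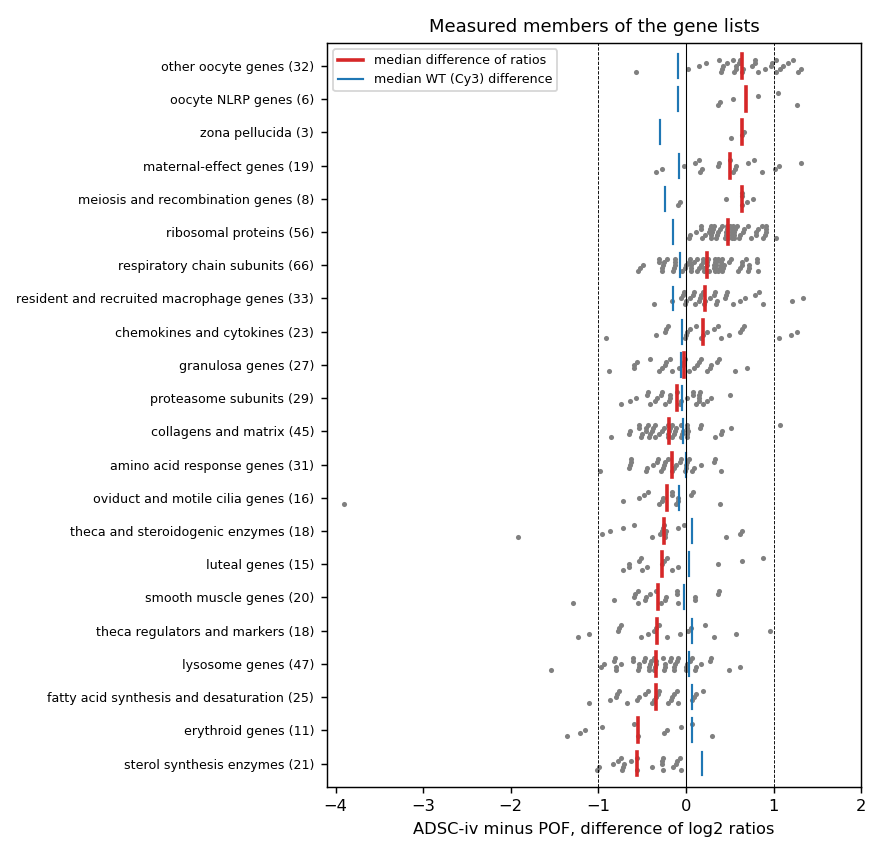
Difference of log2 ratios, ADSC-iv minus POF, of the measured members of 22 gene lists (number in brackets). Each grey point is 1 gene, the red bar the list's median and the thin blue bar the median WT difference; dashed lines mark 2-fold. The 22 are part of 54 lists. Medians of the oocyte lists drawn and of ribosomal proteins lie right of 0, and those of sterol, erythroid, fatty acid and lysosome lists left of it. The lists of oocyte growth factors and receptors (median 0.09) and of oocyte transcription factors (0.23) are not drawn.

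Enzymes that clear aldehydes and make retinoids were lower in part. The median over 24 genes was -0.18 and 6 were above 0, but 3 were at least 2-fold lower. These were Adh1, Aldh1a7, which went from 0.44 to -0.63, and glyoxalase Glo1, which went from 1.30 to 0.22 with an SD of 0.15 over its probes. A product of cyclophosphamide is broken down by aldehyde dehydrogenases, of which Aldh1a1 differed by -0.76 and Aldh3a1, dim in WT, by 0.23. Aldehyde reductases Akr1a1 (-0.59), Akr1b8 (-0.58) and Akr1b3 (-0.53) were lower, and Adh5 (0.15) and Aldh9a1 (0.04) were level. Glutathione and antioxidant genes had no common direction (median -0.0020, 17 of 35 above 0), from Nqo1 (-0.76) and Srxn1 (-0.68) to Gsta3 (0.72) and Gsta1 (0.87).

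Amino acid response genes, many of them targets of ATF4, lay at a median of -0.16, and 9 of 31 were above 0. The transporter pair Slc3a2 and Slc7a5 was at 0.41 and 0.46 on the POF array and at -0.57 and -0.18 on the ADSC-iv array. The serine enzyme Psat1 (-0.63), the tRNA synthetase Nars (-0.63) and the stress gene Ddit4 (-0.65) were lower, while Lars (0.33) and Nupr1 (0.40) were higher. Of 26 heat shock and folding genes 6 were above 0 (median -0.16), and Hspa8 and Dnajb11 were lowest (both -0.68).

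Lists tied to DNA damage and to markers of the injected type of cell were near 0. The list of factors that such cells secrete was lower, at a median of -0.21. The p53 targets had a median of -0.04 over 23 genes, with 11 above 0. The cell cycle inhibitor Cdkn1a was at 1.27 on the POF array and 0.78 on the ADSC-iv array, and the nuclease Aen at 0.47 and -0.34. Apoptosis regulators had a median of 0.01 over 21 genes. Of 40 proliferation genes 23 were above 0 (median 0.06), and Birc5 (0.80), Gmnn (0.83) and Cenpe (0.83) were highest.

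Markers used for mesenchymal stem cells had a median of -0.02 over 15 measured of 23 on the array, with 7 above 0. Thy1 (0.65) and Dpp4 (0.52) were highest, both on the WT side, and Cd9 (-0.57), Alcam (-0.48), Cd34 (-0.47) and Itgb1 (-0.45) lowest. Eng differed by -0.02 and Pdgfrb by 0.16. Growth and survival factors that such cells secrete had a median of -0.21 with 5 of 17 above 0. Farthest apart were Angpt1 (0.92) and Kitl (-0.88), each dim in Cy5 on 1 array, and the lower Ccn1 (-0.65), Timp1 (-0.65) and Mmp2 (-0.42, on the WT side). Vegfa (-0.16), Vegfc (-0.36) and Bmp4 (-0.37) were lower, and Igf1 (0.38), Vegfb (0.17) and Angpt2 (0.28) higher.

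The remaining genes at 2-fold were on no list, and those named here were chosen after their values were seen. Rnase1, a secreted ribonuclease, was at -0.06 in POF, where WT was not above background, 1.74 in ADSC-iv and -0.63 in ADSC-ovary ovaries. The RNA uridylyltransferase Tut4 went from -1.07 to 0.35, the elongation factor Tcea1 from -0.23 to 1.03 and the reductase Akr1c13 from -0.20 to 1.01. Ly6k, a surface protein of germ cells, was at 1.03 in POF, -1.13 in ADSC-iv and 1.07 in ADSC-ovary ovaries, with WT at 0.01. The water channels Aqp2 and Aqp5 went from 0.79 to -0.84 and from 0.48 to -0.60, the former over 2 probes. The neuropeptide gene Adcyap1 was not above background in Cy5 on the ADSC-iv array. By that dim signal it was 3.80-fold lower there in Cy5 than on the POF array (difference of ratios -1.94).

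Genes with a Cy5 signal above background on 1 of the 2 arrays only were read last, among those with a RefSeq symbol and a quality flag of 100 on the brighter array. There were 126 on the ADSC-iv array only and 48 on the POF array only, but in 84 and 39 of these the WT signal was also not above background on at least 1 array. The 5 largest Cy5 folds on each side were all of this kind. Among them were Gabarapl1 (49.3-fold, WT difference 4.80), Strap (WT difference 2.98) and Dhx29 (10.4-fold the other way, -2.78). Both channels of the spot thus differed together. Those folds give no difference between the groups. Among genes with WT above background on both arrays and differing by at most 0.5, which were chosen after this was seen, 39 and 9 remained, and 2 of each reached 2-fold in Cy5. Among them were Figla and Tent5b (2.18-fold) on the ADSC-iv array and Adcyap1 on the POF array.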

How the data were processed

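Ovary RNA was measured on 3 two-colour spotted arrays, each with a treated group in Cy5 and WT in Cy3, at 1 array per group. RNA was linearly amplified before labelling, per the labels' protocols, which can alter the relative level of transcripts. Per the file headers, the deposited files hold spot and background median intensity at 635 nm and 532 nm, and per the series' design text LuxScan 3.0 read the images. The authors' deposited normalized values behave as log2 ratios: over bright spots they correlated with the log2 ratio of the intensities at 0.966 on the POF array and 0.955 on the ADSC-iv array, with medians of 0.04 and 0.01. Their exact normalization is not given in the sources used here, and they served as an alternative.

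Intensities were background-corrected by normexp (offset 50) and loess-normalized within each array in limma 3.58.1 (R 4.3.3), and probes of a gene were averaged. Cy5 and Cy3 levels for each channel were taken after loess and quantile scaling of the mean brightness. A spot was above background when it exceeded its local background by 2 background SDs. Of 31920 gene probes, 39.9% on the POF array and 43.4% on the ADSC-iv array were above background in at least 1 channel, and 0 of 768 blank spots were. Of 9168 measured genes, 8021 were above background in all 4 channels, and 2157 had over 1 probe, with a median SD over probes of 0.199. Names were updated through RefSeq GRCm38.p6: of 19518, 14166 matched a symbol, 3898 a synonym, and 1454 were kept. Promoter sequences are RefSeq's for the same build, and the tables used here are not complete.

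Differences at or beyond 2-fold (1 on the log2 scale) were counted and not tested. Folds of genes dim in Cy5 on 1 array are of the Cy5 channel alone, not of the ratio to WT. They set the brighter Cy5 signal against the higher of the dim signal and the lowest signal above background on that array. They are not lower bounds, because the dim spot's own background limit was not used. Named genes were the 25 highest and 25 lowest among bright genes whose probes agreed in sign, up to 6 members of each of 54 lists with the largest differences, and all members of lists gone through in order; other genes named were chosen after their values were seen. The comparison, the members and the gene lists were chosen with earlier results of these data known. Tables were made with Python 3.11.15, pandas 2.3.3 and numpy 2.4.6, and the steps were checked on simulated arrays. Some members of the lists are counted in the list values but not reported by name here.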

Additional observations from a re-analysis of the deposited data

Results flagged for a closer look

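Probes with no gene name were not used in the comparisons. Of 1735 such probes measured on both arrays, 19 (1.10%) differed at least 2-fold between the ADSC-iv and POF arrays, 16 higher and 3 lower, from -2.03 to 1.28 on the log2 scale. They stand here because the signal lies outside the named genes, and their genes are not named here.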

How the results depend on the processing

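The counts at 2-fold moved with the processing. Against 47 higher and 32 lower genes, median centring gave 37 and 67, the authors' values 239 and 341, Cy5 alone 92 and 47, and no filter on dim genes 134 and 110. The authors' values and the dim genes spread more widely around 0; the cause was not tested. All 79 genes kept their sign under median centring, no background correction, an offset of 10, scaling between arrays and the authors' values. They also did with loess per print block, chosen after seeing the data, and 78 of 79 did in Cy5 alone. Genes not on the WT side are bound to keep their sign in Cy5. Signs were kept without the filter on dim genes, which leaves these values as they are. The brightest probe, which can alter only genes with over 1 probe (2 higher, 7 lower), changed no sign. Only 64 of the 79 had a value with all channels above background (39 higher and 25 lower at 2-fold). With flag 100 only 57 did (31 and 26). Those with a value kept their sign in both settings. All settings used the same 2 arrays and genes picked at 2-fold, so kept signs speak of the processing only. Medians of 6 lists, chosen after their values were seen, kept their sign in 12 of 12 settings: other oocyte genes (0.60 to 0.80), maternal-effect genes (0.35 to 0.58), sterol synthesis (-0.64 to -0.39), steroid enzymes (-0.39 to -0.22), ribosomal proteins (0.38 to 0.52) and lysosome genes (-0.42 to -0.24). The medians of the granulosa, glutathione, acute-phase, S100, B cell, interferon-stimulated, platelet, fat cell, stem cell marker, endothelial, proliferation, p53, apoptosis and Y-linked lists changed sign in at least 1 setting. Pparg ran from -1.84 with an offset of 10 to 3.38 in the authors' values, and the median of oocyte growth factors and receptors went from 0.09 to 1.04 with flag 100 only. Without the filter on dim genes the erythroid median was -0.12 and the meiosis median 0.17. Over the 48 print blocks the median difference ran from -0.17 to 0.19. No paired analysis was possible because each group had 1 array, and leaving out a replicate was not possible for the same reason. Signal over background limits, among others, the oocyte transcription factor, NLRP, neutrophil, T and NK cell, B cell and oviduct lists.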
